A study of Homo sapiens with 16 samples.

Results

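Guanylate-binding proteins (GBPs) are large GTPases made by cells that sense interferon, and IRF1 is the transcription factor through which interferon-gamma switches on many of them. The genes described here are GBP1, GBP2, GBP3, GBP4, GBP5 and IRF1, which are 6 of the 58051 gene identifiers measured and were picked by symbol. They were picked with their levels in all 4 groups already known. Their levels and differences are therefore given as descriptions, with no p-value, in every comparison.

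The cells were P493-6, a human B lymphocyte line that carries a MYC transgene shut down by doxycycline and an EBNA2 protein that works only with oestrogen. High MYC cells were grown in plain DMEM, and medium MYC cells in DMEM to which doxycycline (0.1 µg/mL) and beta-estradiol (1 µM) had been added 24 hours earlier. Each kind of cell then received for 24 hours either the vehicle DMSO (control) or 100 nM of IMP1088, which blocks N-myristoyltransferase (NMT), the enzyme that puts myristate on the start of many proteins. The 4 groups had 4 libraries each and all came from 1 cell line. The title places NMT inhibition beside MYC levels, which poses the question of whether cells respond alike at both. Medium MYC cells carried both additives, so the effects of MYC, doxycycline and oestrogen with EBNA2 cannot be told apart.

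Values are normalized counts, that is, reads scaled by the authors to the depth of each library. Recovered reads numbered from 8755296 to 13858534 per library, and MYC itself averaged 31649 normalized counts in high MYC controls against 959 in medium MYC controls. MYC was higher with IMP1088 at both levels, without overlap. At high MYC it ran from 46843 to 48049 with IMP1088 against 29693 to 34376 in controls. At medium MYC it ran from 1328 to 1444 against 904 to 1022. The part of this MYC difference in the member values was not tested. B cell markers were abundant in every group, none of 7 being at 0, with summed levels of 24741 to 24893 in high MYC controls, 19997 to 20968 with IMP1088, 39552 to 40288 in medium MYC controls and 34982 to 36164 with IMP1088. Log2 changes below are differences of log2(value + 1) from limma, with their standard error (SE). Other genes were called changed at a limma adjusted p-value under 0.05 among 13765 genes with a mean of at least 10.

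Interferon-gamma binds the receptor IFNGR1 with IFNGR2, whose kinases JAK1 and JAK2 carry the signal to GAS elements such as the one in the IRF1 promoter. IRF1 in turn binds interferon-stimulated response elements (ISREs) in front of its targets. GBPs coat intracellular bacteria and pathogen vacuoles and help to start inflammasome signalling. GBP1, GBP2 and GBP5 are anchored in membranes by a prenyl group at the C-terminus, a lipid attached by other enzymes than NMT.

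The promoters show where such elements lie, and these stretches are printed because the members they belong to moved differently. RefSeq promoters of GRCh38.p14, 300 bases each, matched GBP1, GBP3, GBP4 and IRF1 among the 6 members. An ISRE was searched on both strands as a pair of GAAA blocks parted by NN (any bases), a GAS element as TTCNNNGAA, an RBPJ site as GTGGGAA, a MYC E-box as CACGTG, and the NF-kappaB site by its consensus. Of 35116 promoters of this length, 3.57% held the ISRE, 7.66% the GAS element, 6.25% the RBPJ site, 7.26% the E-box and 5.91% the NF-kappaB site. Capitals mark the motif, each stretch is read 5′ to 3′ along the minus strand that carries the gene, and positions count from the transcription start. GBP1 held 1 ISRE, from -127 to -118 (chr1:89065316-89065345). GBP3 held the same 10 letters from 3 to 12 (chr1:89022845-89022874) and a GAS element from -15 to -7 (chr1:89022863-89022891). GBP4 held an ISRE from -4 to 6 (chr1:89198927-89198956) and an NF-kappaB match from -45 to -36 (chr1:89198968-89198997). IRF1 held a GAS element from -124 to -116 (chr5:132490879-132490907) and an NF-kappaB match from -50 to -41 (chr5:132490804-132490833).
GBP1 ISRE: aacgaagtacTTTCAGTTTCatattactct
GBP3 ISRE: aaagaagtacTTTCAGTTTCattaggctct
GBP3 GAS: actgagtcacTTCCTTGAAagaagtactt
GBP4 ISRE: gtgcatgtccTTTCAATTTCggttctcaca
GBP4 NF-kappaB: ttgataaacaGGAAAATCCCcaacagtcaa
IRF1 GAS: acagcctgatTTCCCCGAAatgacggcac
IRF1 NF-kappaB: ggccagggctGGGGAATCCCgctaagtgtt
None of the motifs overlapped another. GBP1 and GBP3 shared an unbroken run of 19 bases that holds the ISRE, while GBP1 and GBP4 shared no run longer than 9 bases. No RBPJ site or E-box matched in these 4 windows, which says only that those letters are absent there.

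**Figure D1:**
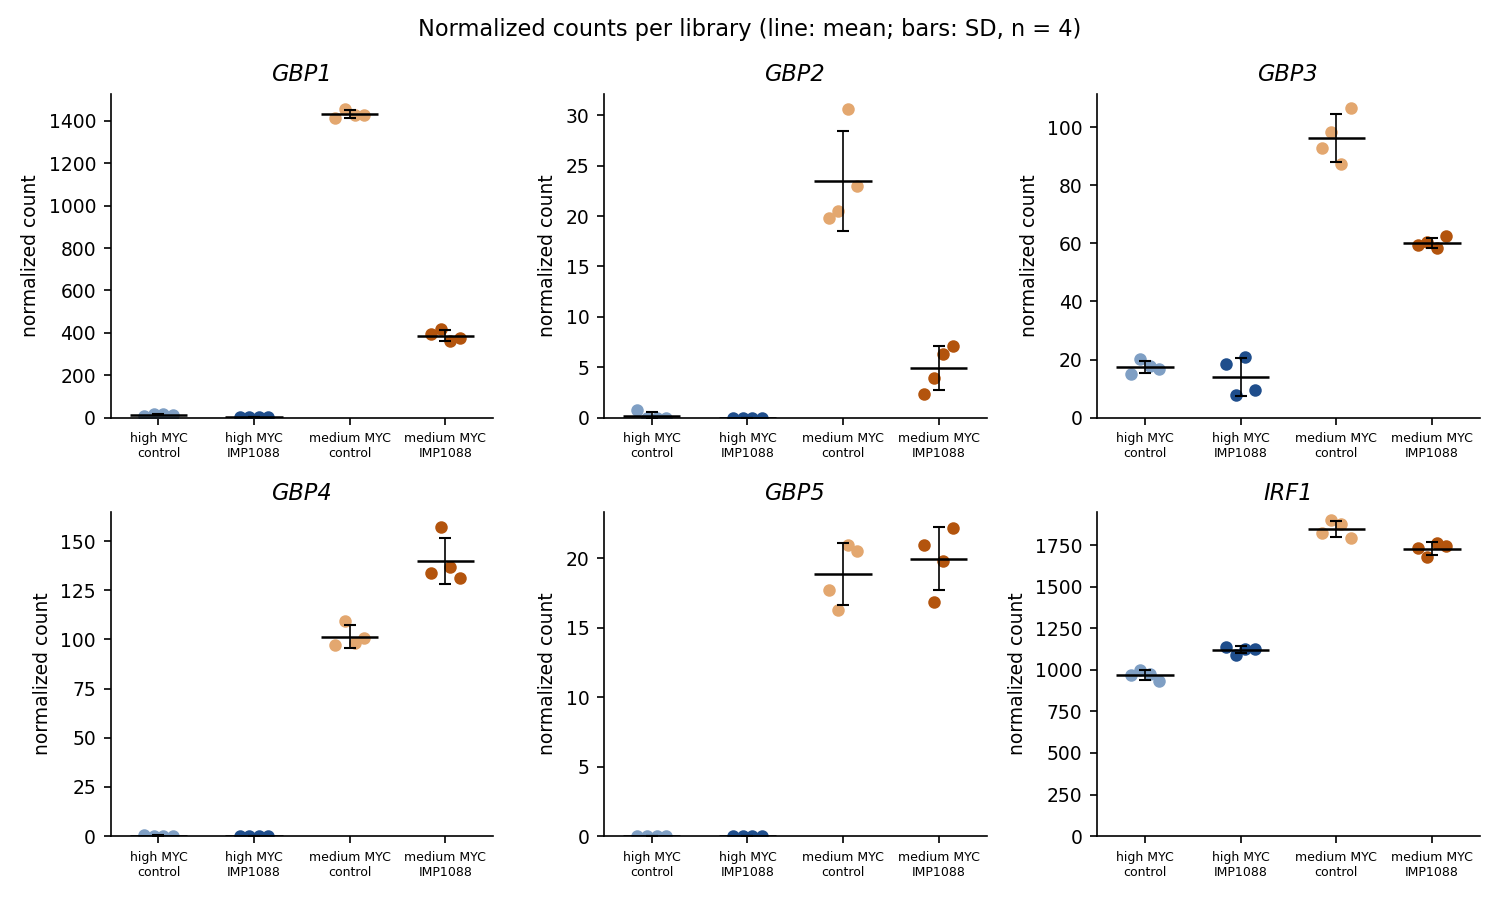
Normalized counts (vertical axes, each from 0) of the 6 genes in the 16 libraries by group, with the group mean as a line and the SD as bars (n = 4). All 6 genes were higher at medium than at high MYC, and with IMP1088 at medium MYC GBP1, GBP2 and GBP3 were lower, GBP4 was higher and GBP5 overlapped.

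The first question was how the genes differed between the MYC levels in control cells. IRF1 was expressed at both levels, whereas GBP2, GBP4 and GBP5 were at or next to 0 reads in every high MYC library. All 6 genes were higher at medium MYC with no overlap between the groups, and this held for 35.6% of all genes tested. The group levels are from bulk RNA, in which fewer cells making a transcript and less of it per cell cannot be told apart.

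IRF1 (chromosome 5, 132481609 to 132490798, minus strand, GRCh38) had values of 967, 1001, 975 and 931 normalized counts in the high MYC controls and 1824, 1901, 1875 and 1793 in the medium MYC controls. Its medium MYC level was 1.91-fold higher, a log2 change of 0.93 (SE 0.03), with every medium library above every high one. Exons of IRF1-AS1, a transcript from the opposite strand, cover 22.0% of the IRF1 exons, and whether counting used strand is not given in the sources used here. IRF1-AS1 itself went from 135 ± 18.2 at high MYC to 217 ± 11.5 at medium MYC (SD, n = 4 each).

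GBP1, the farnesylated member that starts the coat on bacteria, showed the widest measured range. Its values were 8.28, 16.8, 17.7 and 13.4 in the high MYC controls, from 11 to 16 reads per library, and 1412, 1456, 1429 and 1427 in the medium MYC controls. The ratio of the means was 101.9-fold and the log2 change 6.62 (SE 0.18). The medium MYC libraries differed little from each other (SD 18.3), so nearly all of the uncertainty in the fold lies in the few reads at high MYC.

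GBP4, GBP2 and GBP5 had no measurable level at high MYC. GBP4 had 1 read in 1 high MYC control and 0 in the other 3, against 97.0, 109.6, 98.0 and 101 normalized counts in the medium MYC controls, at least 33.0-fold higher when the floor is set at 3 reads per library. GBP2 likewise had 1 read in 1 high MYC control and none elsewhere, and reached 19.8, 20.5, 30.6 and 23.0 at medium MYC, at least 7.64-fold higher. GBP5 was at 0 in all 4 high MYC controls and at 17.7, 16.3, 21.0 and 20.5 at medium MYC, at least 6.14-fold higher. These 3 genes went from the floor to measurable levels, and for none of them can a finite fold be given.

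GBP3, like GBP1, had reads in every high MYC library. It had 15.1, 20.2, 17.7 and 16.8 normalized counts in the high MYC controls and 92.8, 98.5, 87.5 and 107 in the medium MYC controls, a 5.53-fold difference (log2 change 2.41, SE 0.22). The remaining family members on chromosome 1 gave almost nothing: GBP7 was at 0 in all 16 libraries and GBP6 had 1 read in 1 medium MYC library.

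Levels of different genes can be set side by side only per length of exon, here per kilobase of all GENCODE 29 exons of a gene merged. That length can exceed the length of the transcripts that a cell makes. In medium MYC controls GBP1 stood highest at 287 normalized counts per kilobase and IRF1 at 237, followed by GBP3 at 22.4, GBP4 at 16.5, GBP2 at 3.74 and GBP5 at 2.32. In high MYC controls the order was IRF1 at 124, GBP3 at 4.06 and GBP1 at 2.81 per kilobase. By this measure GBP1 thus stood under GBP3 at high MYC and above every other member in medium MYC controls. The values of 4 of 4 libraries did not overlap between GBP1 and IRF1 per kilobase in medium MYC controls, whose SDs were 3.67 and 6.22. The order of these 2 genes depends on the length used, 4992 bases for GBP1 and 7799 for IRF1. Before division IRF1 was the higher, at 1793 to 1901 normalized counts against 1412 to 1456.

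Of the 6 members, 4 had a mean of at least 10 and entered the test: GBP1, GBP3, GBP4 and IRF1. GBP1 and GBP4 averaged under that minimum over the high MYC libraries and passed it only through the medium MYC libraries. GBP2 (mean 7.15) and GBP5 (mean 9.71) lay just under it. All 4 tested members were called higher at medium MYC among controls, against 38.9% of genes called higher in all, and nothing is read from this share because these values chose the members.

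With IMP1088 in both arms, the 6 genes were again higher at medium MYC without overlap, as were 37.2% of all genes tested. GBP1 was at 4.30, 3.33, 2.62 and 2.08 at high MYC, from 2 to 4 reads per library, and at 394, 417, 359 and 376 at medium MYC, 125.5-fold higher. GBP3 was 4.28-fold higher (60.3 against 14.1) and IRF1 1.54-fold higher (1729 against 1119.9). GBP4 was at least 45.5-fold, GBP5 at least 6.50-fold and GBP2 at least 1.60-fold higher. All 4 tested members were called higher here too, where 39.7% of genes were, and again nothing is read from it. The GBP2 bound is low because its medium MYC level itself was only 4.91 normalized counts.

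At medium MYC, where the GBPs could be measured, the members differed in direction with the inhibitor. GBP1, GBP2 and GBP3 were lower, GBP4 was higher, IRF1 was slightly lower and GBP5 overlapped. GBP1 dropped from between 1412 and 1456 to between 359 and 417 normalized counts, a 3.70-fold difference in means (1431 ± 18.3 against 387 ± 24.8, SD, n = 4). The log2 change was -1.89 (SE 0.18), the values of the groups were far apart, and IMP1088 cells at medium MYC still had more GBP1 than any high MYC library.

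GBP2, a geranylgeranylated member, was at 2.33, 3.97, 6.27 and 7.06 with IMP1088 against 19.8, 20.5, 30.6 and 23.0 in controls. That was 4.79-fold lower by the means, from 19 reads in all against 106. The exact 95% interval of the read ratio, 2.89 to 8.19, covers counting error only. The GBP2 groups did not overlap, but 2 to 7 reads per inhibitor library make the size imprecise: its log2 change was -2.11 (SE 0.37) and -1.17 with a pseudocount of 10. Exons of GBP7 cover 9.89% of those of GBP2, and GBP7 itself was at 0.

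GBP3 was at 59.4, 60.6, 58.5 and 62.5 with IMP1088, below each of the 4 controls (87.5 to 107). The difference was 1.60-fold, a log2 change of -0.67 (SE 0.22). GBP3 thus moved in the direction of GBP1 but by less. Of the 50-base stretches in the coding transcripts of GBP3, 2.89% occur in those of GBP1 as well, so a few reads could be assigned to either gene, and their part in the GBP3 values was not tested.

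GBP4, which lacks the C-terminal prenylation signal, was the member that was higher with IMP1088. It had 134, 157, 137 and 131 normalized counts with the inhibitor against 97.0, 109.6, 98.0 and 101 in controls. The groups did not overlap and the means differed 1.38-fold (139.7 ± 11.7 against 101.4 ± 5.71, SD, n = 4). The log2 change was 0.46 (SE 0.24), with a 95% interval that included 0 in the fit of all 16 libraries. The SE was 0.14 without the mean trend and 0.09 in a fit of the medium MYC libraries alone.

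GBP5, a prenylated GBP that acts in NLRP3 inflammasome assembly, was at 21.0, 16.9, 19.8 and 22.2 with IMP1088 and 17.7, 16.3, 21.0 and 20.5 in controls. The groups overlapped, and the 95% interval of the log2 change of 0.08 ran from -0.59 to 0.74. At 17 to 25 reads per library, a difference within that interval was not detectable at this depth.

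IRF1 was at 1732, 1676, 1763 and 1746 with IMP1088 at medium MYC and between 1793 and 1901 in controls. The groups did not overlap but the difference was only 1.07-fold (log2 change -0.10, SE 0.03), and it was -0.06 after quantile normalization. IRF1-AS1 was at 217 ± 11.5 (SD, n = 4) in these controls and fell to 166 ± 7.19 (SD, n = 4) with IMP1088 (log2 change -0.38, limma adjusted p = 0.00513), and its part in the IRF1 values was not tested. The sizes of the GBP1 and GBP2 differences were thus many times that of IRF1.

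Among the 4 tested members none was called higher and 3 were called lower (GBP1, GBP3 and IRF1), where 11.7% of all genes were called higher and 14.6% lower. Among all 6, 1 was higher and 4 lower without overlap, against 12.4% and 15.4% of the genes tested. Nothing is read from these calls and shares, because these values chose the members. With any 1 of the 8 medium MYC libraries left out, GBP1 was called but GBP3 or IRF1 or both were not. GBP1 alone was called without control replicate 2, without IMP1088 replicate 1 or without IMP1088 replicate 2 of the medium MYC cells.

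**Figure D2:**
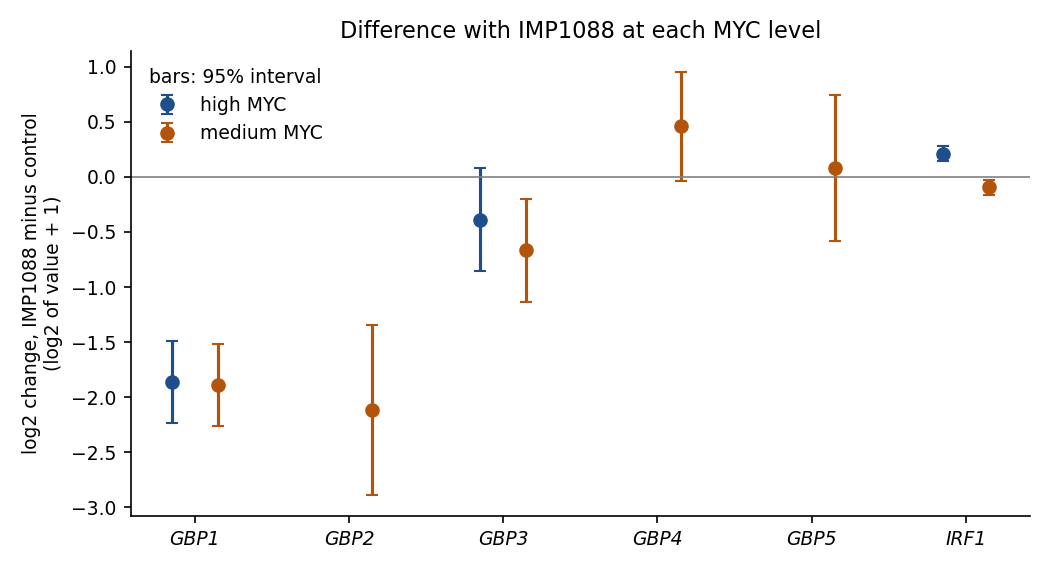
Log2 change with IMP1088 (vertical axis, inhibitor minus control, on log2 of value plus 1) for each of the 6 genes at high and medium MYC, with 95% intervals as bars from the fit of all 16 libraries. GBP1 sat near -1.9 at both levels, IRF1 lay above 0 at high MYC and below 0 at medium MYC, and GBP2, GBP4 and GBP5 have no point at high MYC because both groups were at the detection floor.

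At high MYC, 3 of the 6 genes could be compared between inhibitor and control. GBP1 was lower in all 4 IMP1088 libraries (2.08 to 4.30) than in any control (8.28 to 17.7). The means of 14.1 ± 4.26 and 3.08 ± 0.961 (SD, n = 4) differed 4.56-fold, from 54 reads in all against 12. The log2 change was -1.86 (SE 0.18). Since both groups had few reads, the pseudocount set its size: -0.86 with a pseudocount of 10 and -2.14 with 0.1.

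IRF1 was at 1138, 1090.3, 1126 and 1126 with IMP1088 at high MYC, above each control (931 to 1001). The difference was 1.157-fold, a log2 change of 0.21 (SE 0.03). IRF1-AS1 moved the other way, from 135 ± 18.2 to 100.2 ± 11.3 (SD, n = 4), and fell by 0.42 on the log2 scale (limma adjusted p = 0.00244). GBP3 had 18.3, 7.76, 20.9 and 9.36 with IMP1088 and overlapped its controls (log2 change -0.39, 95% interval -0.86 to 0.08). Of the 4 tested members 1 was called higher (IRF1) and 1 lower (GBP1), where 10.5% of all genes were called higher and 16.3% lower. Without overlap, 1 member was higher and 1 lower, against 10.9% and 15.8% of genes tested. Here too nothing is read from the calls and shares, because these values chose the members.

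The responses at the 2 MYC levels were then set against each other. For GBP1 the log2 change at high minus that at medium MYC was 0.03, with a 95% interval from -0.50 to 0.55. The sign of that value changed with the settings, from -0.25 with a pseudocount of 0.1 to 1.00 with one of 10, so it carries no direction. For GBP3 it was 0.28 (95% interval -0.38 to 0.94), which includes 0. For IRF1 it was 0.31 (95% interval 0.21 to 0.40), as IRF1 was higher with the inhibitor at high MYC and lower at medium MYC. In the fit IRF1 was the 1 member of 4 called, where 8.63% of genes were, and nothing is read from this call because these values chose the members. For GBP2, GBP4 and GBP5 no response can be compared, because they were at the floor at high MYC.

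The GBP genes lie side by side on chromosome 1 in the order GBP3, GBP1, GBP2, GBP7, GBP4, GBP5 and GBP6, from 89006666 to 89386461, all but GBP6 on the minus strand. Along that order, the 3 measured genes at one end (GBP3, GBP1 and GBP2) were lower with IMP1088 at medium MYC, the next measured one (GBP4) was higher and the one after it (GBP5) overlapped. The genes within 500 kb on either side, looked up after these values were seen, changed less than GBP1, GBP2 and GBP3. GTF2B, a general transcription factor, rose by 0.34 on the log2 scale (limma adjusted p = 3.56e-04). LRRC8C, a subunit of a volume-regulated anion channel, fell by 0.30 (limma adjusted p = 1.26e-04). PKN2 (-0.02), KYAT3 (-0.14), RBMXL1 (-0.11), LRRC8B (-0.12) and LRRC8D (-0.11) did not pass the test. All 7 neighbours had log2 changes smaller in size than those of GBP1, GBP2 and GBP3, but all except PKN2 had larger ones than GBP5 (0.08).

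**Figure D3:**
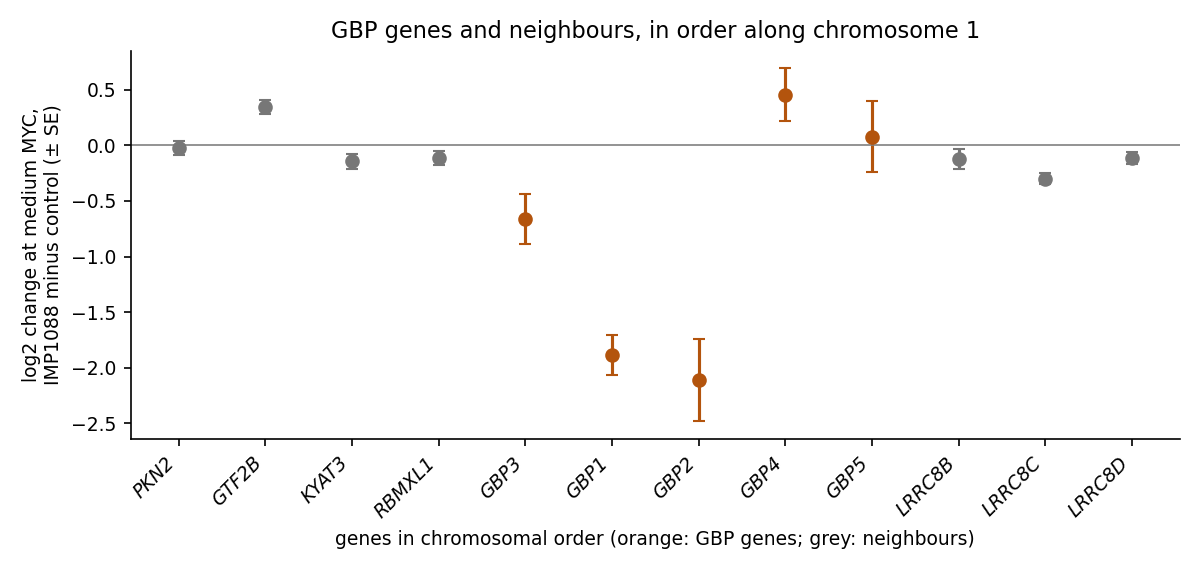
Log2 change with IMP1088 at medium MYC (vertical axis, with SE as bars) for the measured GBP genes and their tested neighbours within 500 kb, in order along chromosome 1 (not to distance). GBP3, GBP1 and GBP2 sit at -0.67, -1.89 and -2.11, GBP4 at 0.46 and GBP5 at 0.08, while the 7 neighbours lie between -0.30 and 0.34.

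The genes of interferon-gamma signalling were listed to show what surrounded IRF1 and the GBPs, and lists and members were chosen with earlier results of these data known. Of the 13 tested genes of the receptor and JAK-STAT list, 11 rose and 2 fell at medium MYC among controls (median log2 change 1.54, against 0.02 for all genes), where 38.9% of all genes were called higher and 37.3% lower. IFNGR1, the ligand-binding receptor chain, rose by 2.86 (SE 0.07, limma adjusted p = 3.17e-19). JAK1 rose by 2.67 (SE 0.03, limma adjusted p = 2.55e-25) and the feedback inhibitor SOCS1 by 2.89 (SE 0.13, limma adjusted p = 1.03e-14). The gene for the ligand, IFNG, was under the minimum and was not tested. The 2 that fell were the phosphatases PTPN2 (-0.53, limma adjusted p = 4.02e-08) and PTPN11 (-0.16, limma adjusted p = 2.00e-04). Among the listed genes named here, exons of XAF1 are covered to 38.3% by a gene on the opposite strand, those of IRF2BPL to 14.8%, IRF2BP2 to 14.7% and IFNGR2 to 12.8%. For EHD4, ICMT, JAK1, MX1, PARP9, PSMB9, PTPN11, RSAD2 and WARS1 any such gene covers from 0.0633% to 6.43%. On the same strand, another gene covers 48.4% of the exons of IRF9 and 5.66% of those of PSMB9.

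With IMP1088 at high MYC, 1 of the 13 signalling genes rose and 5 fell (median -0.06 against -0.02 for all genes), where 10.5% of all genes were called higher and 16.3% lower. At medium MYC none rose and 3 fell (median -0.00076 against -0.0062), where 11.7% and 14.6% of all genes were called higher and lower. IFNGR1 fell alike at both levels, by 0.39 (SE 0.07, limma adjusted p = 2.90e-04) at high and 0.39 (SE 0.07, limma adjusted p = 2.52e-04) at medium MYC. The largest change on this list was in PTPN6, the phosphatase SHP-1 that damps receptor signalling. At high MYC PTPN6 averaged 1660.1 ± 69.0 normalized counts in controls against 760.1 ± 48.3 with IMP1088 (SD, n = 4 each). It fell by 1.13 (SE 0.04, limma adjusted p = 6.76e-14), and by 0.75 at medium MYC (SE 0.04, limma adjusted p = 2.53e-11).

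**Figure D4:**
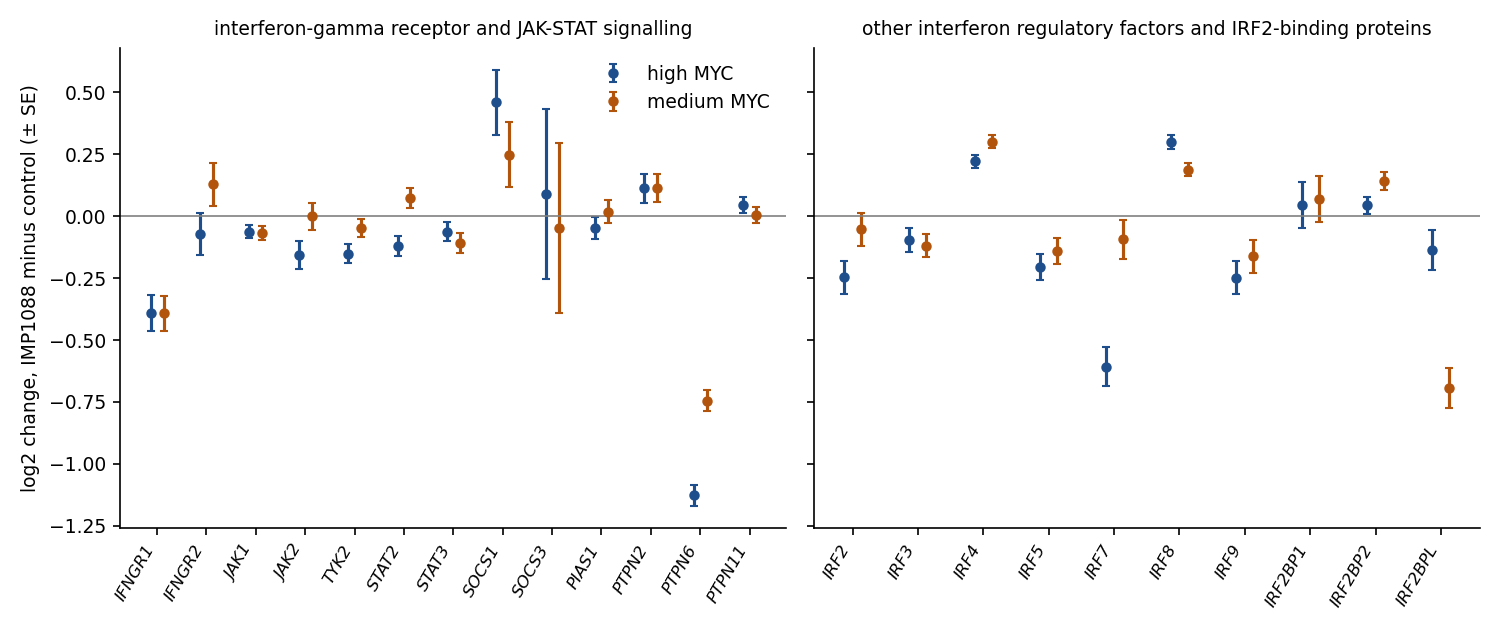
Log2 change with IMP1088 (vertical axis, with SE as bars) at high and medium MYC for the tested genes of the interferon-gamma receptor and JAK-STAT list (left) and for the other interferon regulatory factors and IRF2-binding proteins (right). PTPN6 lies lowest at both levels on the left, and on the right IRF4 and IRF8 lie above 0 at both levels while IRF7 lies at -0.61 at high MYC.

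The next list held 7 tested interferon regulatory factors besides IRF1, which bind related elements, and the 3 IRF2-binding proteins IRF2BP1, IRF2BP2 and IRF2BPL. All 7 factors rose at medium MYC among controls, as did IRF2BP2 and IRF2BPL, while IRF2BP1 fell (median of the 10 genes 1.14). In that comparison 38.9% of all genes were called higher and 37.3% lower. With IMP1088 at high MYC, 2 of the 7 factors rose (IRF4 and IRF8) and 4 fell (IRF2, IRF5, IRF7 and IRF9), where 10.5% of all genes were called higher and 16.3% lower. At medium MYC the same 2 rose and none of the 7 fell, where the shares of all genes were 11.7% and 14.6%. Of the IRF2-binding proteins, IRF2BP2 rose by 0.14 at medium MYC (limma adjusted p = 0.00419) and IRF2BPL fell by 0.69 (limma adjusted p = 1.02e-06). IRF4 and IRF8 direct B cell fate. With IMP1088 at high and medium MYC IRF4 rose by 0.22 (SE 0.03, limma adjusted p = 8.80e-07) and 0.30 (SE 0.03, limma adjusted p = 8.93e-09), and IRF8 by 0.30 (SE 0.03, limma adjusted p = 3.00e-08) and 0.19 (SE 0.03, limma adjusted p = 1.55e-05). IRF7, an amplifier of type I interferon, fell by 0.61 at high MYC (SE 0.08, limma adjusted p = 4.51e-06) and was at -0.09 at medium MYC (limma adjusted p = 0.424). The IRF7 responses differed by -0.51 (limma adjusted p = 0.00413).

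Genes known to be induced by interferon-gamma and IRF1 gave a second view. Of 40 tested, 36 rose and 2 fell at medium MYC among controls (median 0.88, against 0.02 for all genes, of which 38.9% were called higher and 37.3% lower). The chemokine CXCL9 rose from 0.464 ± 0.555 to 435 ± 22.4 normalized counts (SD, n = 4), and CD274, which encodes PD-L1, rose by 4.06 (SE 0.08, limma adjusted p = 8.12e-21). With IMP1088, 3 rose and 24 fell at high MYC (median -0.18, with 10.5% of all genes called higher and 16.3% lower). At medium MYC 4 rose and 21 fell (median -0.14, with 11.7% and 14.6%). At medium MYC the 3 largest falls among those with a mean of at least 50 were APOL3 (-0.54, SE 0.06, limma adjusted p = 4.46e-07), APOL6 (-0.48, SE 0.06, limma adjusted p = 5.91e-06) and the immunoproteasome subunit PSMB9 (-0.44, SE 0.07, limma adjusted p = 9.29e-05). WARS1, a tRNA synthetase induced by interferon-gamma, fell by 0.27 at high MYC (SE 0.03, limma adjusted p = 3.96e-06) and rose by 0.27 at medium MYC (SE 0.03, limma adjusted p = 2.75e-06). The 1.89 log2 drop of GBP1 was thus larger than those of APOL3, APOL6 and PSMB9.

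In the list of type I interferon-stimulated genes, 19 of 24 tested fell at high MYC with IMP1088 and none rose (median -0.57 against -0.02 for all genes, of which 16.3% were called lower). At medium MYC 9 fell and none rose (median -0.14 against -0.0062, with 14.6% of all genes called lower). MX1, an antiviral GTPase of the dynamin superfamily to which the GBPs also belong, fell by 0.63 (SE 0.03, limma adjusted p = 1.09e-12) at high MYC and by 0.21 (SE 0.03, limma adjusted p = 7.51e-06) at medium MYC. The MX1 responses differed by -0.42 (limma adjusted p = 3.96e-07).

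Genes with which GBPs act or to which they are related were examined last. Of 8 tested inflammasome and pyroptosis genes, 7 rose at medium MYC among controls, where 38.9% of all genes did (median 1.02), with the protease CASP1 up by 2.44 (SE 0.20, limma adjusted p = 3.68e-10) and the DNA sensor AIM2 by 1.48 (SE 0.14, limma adjusted p = 5.34e-09). With IMP1088, 1 rose and 4 fell at high MYC (10.5% and 16.3% of all genes), and none rose and 2 fell at medium MYC (11.7% and 14.6%). PYCARD, the inflammasome adaptor ASC, fell by 1.09 at high MYC (SE 0.14, limma adjusted p = 2.90e-06) and by 0.69 at medium MYC (SE 0.14, limma adjusted p = 5.61e-04). Exons of PYCARD-AS1 on the other strand cover 59.7% of those of PYCARD, so reads of the 2 genes may not be told apart. Of 14 tested dynamin-superfamily GTPases other than GBPs, 1 rose and 3 fell at high MYC (10.5% and 16.3% of all genes) and 3 rose and 3 fell at medium MYC (11.7% and 14.6%). EHD4, an endosomal member of that superfamily, fell by 0.86 at medium MYC (SE 0.07, limma adjusted p = 1.75e-09) and by 0.42 at high MYC (SE 0.07, limma adjusted p = 4.50e-05). Of the 6 enzymes that prenylate proteins such as GBP1, or process them afterwards, none rose and 1 fell with IMP1088 at either level. Of all genes, 10.5% were called higher and 16.3% lower at high MYC, and 11.7% and 14.6% at medium MYC. The 1 that fell was the methyltransferase gene ICMT. It was at -0.14 at high MYC (limma adjusted p = 0.0134, a call lost with quantile normalization) and -0.12 at medium MYC (limma adjusted p = 0.0377, a call lost under 12 of 19 alternatives).

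The genes whose pattern most resembled each member were sought among the tested genes with a mean of at least 50, by Pearson's r on log2(value + 1) over the 16 libraries. These r values are descriptions, since all libraries share the same MYC and treatment groups. For IRF1 they were the RNase gene ZC3H12A (0.994), the NF-kappaB subunit gene RELB (0.991) and SYNE3 (0.990). With the mean of each MYC level removed they were EZR (0.888), BICD2 (0.885) and ZC3H12A (0.882). For GBP1 they were STK17B (0.996) and E2F8 (0.996), and after removal RNF144A (0.980), MYL12A (0.972) and PIK3C2B (0.965). GBP3 stood nearest to SNX6 (0.983), GPRC5C (0.983) and TRIM34 (0.982), and after removal to GALNT10 (0.898), CTTNBP2NL (0.871) and SNX6 (0.869). GBP4 stood nearest to ACKR3 (0.999), SLAMF6 (0.999) and SORL1 (0.998), and after removal to ACKR3 (0.903), PRDM11 (0.882) and IGKV1D-13 (0.864). The IRF1 neighbours were the same 3 by each measure with a pseudocount of 10, while none of those of GBP1 or GBP4 was. With the mean of each MYC level removed, r between members was 0.694 for GBP1 with GBP3 (0.791 with a pseudocount of 10), -0.369 for GBP1 with GBP4 (-0.809), -0.301 for GBP1 with IRF1 (0.0015) and -0.499 for GBP4 with IRF1 (-0.430). It was -0.359 for GBP3 with GBP4 (-0.657) and 0.0132 for GBP3 with IRF1 (0.109). GBP1 with GBP3 thus had the largest positive value in both settings. GBP4 had a negative value with GBP1, with GBP3 and with IRF1 in both.

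Summed markers of monocytes, NK cells and T cells were higher at medium than at high MYC, while those of epithelial cells overlapped between the control groups. Single markers differed within these sums. Between high and medium MYC controls TRAC and CD3E rose, CD3G overlapped, and the median T cell marker went from 27.8 to 21.6. The NK cell sums were nearly all NKG7. EPCAM fell from between 54.2 and 70.8 to between 9.39 and 21.3, while CDH1 rose from at most 0.753 to between 46.8 and 64.8. Of the monocyte and macrophage markers, ITGAM, CD68 and CSF1R rose between the control groups, while CD14 and LYZ overlapped. With IMP1088 at medium MYC, ITGAM and CD68 fell and CD14 and CSF1R overlapped. LYZ rose there from between 47.1 and 53.2 to between 65.6 and 69.9, and the median marker of that list went from 49.4 to 59.1. Summed levels of 5 monocyte and macrophage markers ran from 139.1 to 161.7 in high MYC controls, 115.1 to 127.6 with IMP1088, 360.4 to 392.1 in medium MYC controls and 288.4 to 336.7 with IMP1088, and none of the 5 was at 0. Those of 4 NK cell markers ran from 2.25 to 4.41, 0 to 1.04, 19.8 to 26.5 and 11.5 to 22.8 in the same groups, with NCR1 at 0 throughout, GNLY at 0 in both high MYC groups and KLRD1 at 0 with IMP1088 at high MYC. For 5 T cell markers the ranges were 87.2 to 106.2, 55.1 to 77.6, 182.5 to 240.4 and 153.8 to 188.0, with CD8A at 0 in all but the medium MYC IMP1088 group and CD3D at 0 with IMP1088 at high MYC. Epithelial markers, 4 in number, ran from 56.5 to 70.8, 65.6 to 86.3, 60.5 to 78.8 and 84.6 to 111.8, with KRT18 at 0. Their part in the levels of the GBPs and IRF1 was not tested.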

How the data were processed

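RNA was sequenced from 16 libraries of P493-6 cells, 4 in each of 4 groups. The authors deposited normalized counts, an expression signal for 58051 Ensembl identifiers. Per the submitters' processing notes the tools were STAR 2.5.2a, RSEM 1.2.31 and DESeq2 1.16.1 and the build was GRCh38; annotation, strand and filters are not given in the sources used here. In every library 100% of values were whole multiples of 1 step (within 1e-06 reads), and the steps matched median-of-ratios factors (0.858 to 1.33), so whole reads were recovered. Intervals and floors cover counting error only, because reads carry no molecular identifiers; a group with 3 or fewer reads in every library was taken as at the floor.

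Symbols came from a separate list of gene names. Positions and exons came from GENCODE 29, in which 57447 identifiers were found. limma 3.58.1 (R 4.3.3) was fitted to log2(value + 1) of 13765 genes with a mean of at least 10, with 4 group means, a mean trend and Benjamini-Hochberg adjustment, two-sided; it was tested on simulated data. GBP2 and GBP5 values came from the same fit without the filter. The comparisons at high MYC and at medium MYC share control libraries with the comparison of controls, and the 2 sets are not independent. Nothing says that replicates were separate cultures, so p-values measure the spread between these samples, which may be technical. The members and gene lists were chosen with earlier results of these data known. Besides the members, genes were named by rule: in each list up to 3 called higher and 3 lower with the largest change and a mean of at least 50, any gene of the short lists, and the 3 nearest in pattern; not all are printed, and some items are not reported here. Genes within 500 kb were added after the values were seen. Alternatives were other scalings (equal totals, quantile), pseudocounts of 0.1 and 10, no filter or a mean of 100, no mean trend, compared groups only, a replicate block, edgeR 4.0.16, DESeq2 1.42.0 and leaving out each library; levels per kilobase of exon were added after the data were seen.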

Additional observations from a re-analysis of the deposited data

Results flagged for a closer look

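A single read in 1 high MYC control library (0.753 normalized counts) set that library apart from the other 3, which were at 0, for GBP2 and again for GBP4. The gap made up the whole range of the group (a ratio of 1), which any single read gives where the other 3 libraries are at 0.

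In the deposited scaling, IRF1 was higher with IMP1088 in all 4 libraries at high MYC and lower in all 4 at medium MYC. The medium MYC difference was small, a log2 change from -0.11 to -0.08 with single libraries left out. Its call was lost with the replicate block. The IRF1 log2 change at high minus that at medium MYC was 0.31. It is given as a description with no p-value because IRF1 was chosen with these values known.

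For other listed genes the test of the difference itself was passed (limma adjusted p under 0.05). The response at high minus that at medium MYC was below 0 for OASL (-0.94), IFIT1 (-0.84), RSAD2 (-0.82), WARS1 (-0.54), IRF7 (-0.51), PARP9 (-0.43), MX1 (-0.42), PTPN6 (-0.38), XAF1 (-0.31), MFN1 (-0.22) and STAT2 (-0.19). It was above 0 for IRF2BPL (0.56), EHD4 (0.44), APOL2 (0.36) and APOL3 (0.27). The calls of APOL3, MFN1 and STAT2 were lost under most settings: 18, 16 and 15 of 26 alternatives. That of RSAD2 was lost under 2 of 26, without the mean trend and without replicate 4 of the medium MYC IMP1088 libraries.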

How the results depend on the processing

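The numbers of all genes called and of listed pathway genes called stayed within 1.5 times under all alternatives run. With equal library totals, member levels in each group moved by no more than 1 SD. Leaving out 1 of 4 libraries cannot move a group mean by 1 SD, so nothing is read from that setting for the levels. Of 524 member log2 changes, 481 moved by less than the spread and 7 differed in sign, all for the difference between the GBP1 responses. At medium MYC 3 members were called with IMP1088; the number was 1 (GBP1) with the replicate block and from 1 to 2 when single libraries were left out, and GBP4 was called higher as well with edgeR, with DESeq2, without a mean trend, with a pseudocount of 10 and in the compared groups alone. For the difference in response 1 member was called, but 2 with a pseudocount of 10 (GBP1 and IRF1) and 2 without the filter (GBP2 and IRF1). Of 4 members called between MYC levels, 2 (GBP1 and IRF1) were left with a filter at a mean of 100, in controls and with IMP1088 alike, since fewer genes were tested. Calls of members are given only to show how they depend on the settings, because these values chose the members. With a pseudocount of 10, of the 3 genes nearest in pattern 0 were kept for GBP1 and 0 for GBP4 by each measure, and 1 for GBP3 with the MYC level removed. Scaling moved the split of calls. At medium MYC 1606 genes were called higher and 2012 lower, but 1962 and 1658 with equal library totals; at high MYC 1442 and 2247, but 1727 and 1770 with quantile normalization.

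Same-numbered libraries had residual correlations from -0.15 to 0.24, so the numbers do not pair the samples. With the replicate block 3496 genes were called at high MYC, 3442 at medium MYC, 1026 for the difference in response, 10419 between MYC levels in controls and 10601 with IMP1088. Depth limits GBP1 at high MYC, GBP2 and GBP5, which rest on few reads.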
